A study of Mus musculus with 49 samples.

Results

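The Egr and Nr4a transcription factors and the 2 Nab corepressors of the Egr proteins were examined in the frontal cortex of mice fed a high fat diet. The members were taken by gene symbol, and 9 of the 24488 genes analysed belonged to them: 4 Egr genes (Egr1, Egr2, Egr3 and Egr4), 3 Nr4a genes (Nr4a1, Nr4a2 and Nr4a3), Nab1 and Nab2. RNA was sequenced in 49 libraries from 5 groups, and all of these mice received the diet. WT mice had eaten it for 2 months (9 libraries) or for 4 months (10 libraries), and another group of 10 libraries, on the diet for 4 months, carried the label AKO, given as Amylin-KO in the growth protocol. The other two groups, also on the diet for 4 months, were conditional transgenic mice for human amylin that had been injected with vehicle (10 libraries) or with tamoxifen (10 libraries), with brains taken after 2 months. The sources used here do not give strain, sex, age, the promoter of the transgene or the driver of Cre. The labels do not say whether each library came from its own animal, and the p-values therefore reflect only spread from library to library, which may be technical.

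Egr proteins are zinc finger transcription factors that bind a GC-rich site, and Nab1 and Nab2 bind to most of them and repress their activity, with Nab2 itself an Egr target. Nr4a proteins are orphan nuclear receptors that bind DNA as monomers at a site called the NBRE, or as dimers, and are controlled mainly through their amounts. In cortical neurons most of these genes are immediate early genes: synaptic activity switches them on within minutes through the factors CREB and SRF, and their RNA is short-lived. Levels are given as log2(normalised reads + 1), so a difference of 1 is a doubling of the normalised reads for genes with many reads.

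Iapp, the gene of amylin, had 36 to 116 reads in each of the libraries labelled AKO, 0 in every WT library and at most 1 in any transgenic library, which goes against the label, so directions drawn from this group hold for the libraries as labelled. Libraries held 29.17 to 75.65 M recovered reads (median 42.02 M). The cortical excitatory neuron markers Slc17a7, Tbr1 and Cux2 were present in every library, at group means of 16.10 to 16.30, 12.14 to 12.41 and 11.46 to 11.85. Single libraries went as low as 10.70 in Tbr1 with vehicle and 10.74 with tamoxifen, against 11.43 or more in the other groups. Omp, a marker of olfactory sensory neurons, ran from 3.20 to 12.73 over the libraries, and its part in the results was not tested. In these bulk samples fewer cells of a type and less RNA per cell cannot be told apart.

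Promoter stretches from RefSeq (GRCm38.p6) are shown first for 5 of the immediate early genes compared here, because the cAMP response element (CRE, TGACGTCA), which CREB binds, and the CArG box, which SRF binds, lie close to such start sites. Of the 9 members 7 matched an entry, with 11 windows of 250 bases before and 50 bases after a start site. Egr1 and Egr3 had no entry. Each stretch runs 5′ to 3′ on the gene's strand up to the start site or the first annotated exon, and capitals mark the TGACG core of the CRE on either strand (CGTCA on the other) and, in Egr2, the CArG box.

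Egr2, chr10:67537619-67537868, plus strand: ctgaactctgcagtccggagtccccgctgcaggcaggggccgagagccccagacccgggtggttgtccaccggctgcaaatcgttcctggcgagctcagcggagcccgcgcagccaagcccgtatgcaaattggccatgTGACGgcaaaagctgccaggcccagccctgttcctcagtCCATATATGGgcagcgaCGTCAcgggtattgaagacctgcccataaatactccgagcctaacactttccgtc
Egr4, chr6:85513590-85513839, minus strand: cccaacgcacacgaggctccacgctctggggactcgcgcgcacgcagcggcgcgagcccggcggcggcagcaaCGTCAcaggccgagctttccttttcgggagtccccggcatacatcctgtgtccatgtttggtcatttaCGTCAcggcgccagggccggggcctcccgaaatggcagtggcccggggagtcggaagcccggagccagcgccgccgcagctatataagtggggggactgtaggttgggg
Nr4a1, chr15:101266596-101266845, plus strand: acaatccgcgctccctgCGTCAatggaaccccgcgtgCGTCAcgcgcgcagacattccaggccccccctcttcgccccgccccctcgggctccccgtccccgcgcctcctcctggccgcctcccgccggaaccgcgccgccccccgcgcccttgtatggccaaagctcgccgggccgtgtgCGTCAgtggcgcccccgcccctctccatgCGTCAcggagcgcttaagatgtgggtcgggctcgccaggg
Nr4a2, chr2:57124004-57124253, minus strand: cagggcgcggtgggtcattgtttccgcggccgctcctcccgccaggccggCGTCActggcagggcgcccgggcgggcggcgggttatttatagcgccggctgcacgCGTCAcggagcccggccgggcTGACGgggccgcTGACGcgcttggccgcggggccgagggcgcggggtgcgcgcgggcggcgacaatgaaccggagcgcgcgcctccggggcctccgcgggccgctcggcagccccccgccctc
Nr4a3, chr4:48045055-48045152, plus strand: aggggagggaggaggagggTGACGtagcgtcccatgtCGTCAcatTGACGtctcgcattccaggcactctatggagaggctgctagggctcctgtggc

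The Egr2 and Nr4a1 stretches lie between annotated exons of their genes, ahead of a downstream start site, and the other 3 lie before the gene. The whole windows of Nr4a1, Nr4a2 and Nr4a3 each held 4 TGACG cores, and the Egr2 and Egr4 windows behind the stretches shown held 2. Of the 5 Egr2 windows, 3 overlapping ones held 2 cores and the CArG box shown. Another 1, which does not overlap them, held a different CArG box and no core. The one at the upstream start of the gene (chr10:67535249-67535548) held none of the motifs searched. In Nr4a1 the cores began 233, 213, 69 and 40 bases before the start site, and in Nr4a3 231, 213, 205 and 147 bases before it, the last inside an annotated exon and not shown. The CArG box shown for Egr2 began 72 bases before the start, between cores at 111 and 55 bases. Among all 32851 RefSeq windows of this length, 20.8% held the TGACG core on either strand and 1.63% held a CArG box. The full CRE, which contains the core, was in 1.79% of all windows and in no member window, and the same held for the NBRE (AAAGGTCA, 1.51% of all windows). The Nab1 window held 2 copies of the EGR site GCGTGGGCG, 141 and 109 bases before the start, against 0.612% of all windows with a copy, and the Nab2 window held none of the 5 motifs searched. Nab1 also had 1 TGACG core, 123 bases before the start. These matches describe letters in the windows shown, and binding was not measured.

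Among the Egr genes, levels were highest in WT mice at 2 months and lowest in the libraries labelled AKO. Egr1, the most abundant, is induced by synaptic activity and acts in long-term plasticity (gene ID 13653; chromosome 18, 34859823 to 34864984, plus strand, GRCm38). It was at 14.004 ± 0.35 (SD, n = 9) in 2-month WT, 13.67 ± 0.25 in 4-month WT, 12.91 ± 0.36 in the libraries labelled AKO, 13.20 ± 0.47 with vehicle and 13.25 ± 0.55 with tamoxifen (n = 10 in each of these 4 groups, as in the sentences that follow). Egr2, also known as Krox20 and required for peripheral myelination (gene ID 13654; chromosome 10, 67535475 to 67542188, plus strand), was at 9.16 ± 0.82, 8.83 ± 0.55, 7.11 ± 0.56, 8.26 ± 1.11 and 8.17 ± 1.305 in the same order of groups. The SD of Egr2 in either transgenic group was thus over 1 log2 unit, a wider spread than in either 4-month non-transgenic group. With vehicle this rested on replicate 10 (5.49). The other 9 vehicle libraries had an SD of 0.57, near that of the 4-month non-transgenic groups. Egr3, needed for muscle spindle development and expressed in cortical neurons (gene ID 13655; chromosome 14, 70077203 to 70082614, plus strand), was at 13.38 ± 0.35, 13.01 ± 0.28, 12.47 ± 0.15, 12.80 ± 0.36 and 12.67 ± 0.53. Egr4 (gene ID 13656; chromosome 6, 85511121 to 85513589, minus strand) was at 11.29 ± 0.33, 11.01 ± 0.25, 10.24 ± 0.43, 10.49 ± 0.44 and 10.66 ± 0.66.

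The corepressors varied much less. Nab1 (gene ID 17936; chromosome 1, 52457294 to 52500679, minus strand) was at 10.74 ± 0.13 in 2-month WT, 10.80 ± 0.08 in 4-month WT, 10.78 ± 0.08 in the libraries labelled AKO, 10.83 ± 0.29 with vehicle and 10.75 ± 0.14 with tamoxifen. Nab2 (gene ID 17937; chromosome 10, 127660918 to 127668568, minus strand) was at 11.38 ± 0.24, 11.20 ± 0.13, 11.07 ± 0.09, 11.28 ± 0.23 and 11.21 ± 0.26. Nab2 overlaps Stat6, Nemp1 and the antisense gene Gm16229 on the other strand. The kit keeps strand, but the sources used here do not say whether the counting used it, so reads could be shared. Stat6 was at group means of 9.20 to 9.47.

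Among the Nr4a receptors, Nr4a1 and Nr4a3 had the order of groups seen for the Egr genes in their lowest and highest mean, and Nr4a2 did not. Nr4a1, also called Nur77 (gene ID 15370; chromosome 15, 101254269 to 101274795, plus strand), was at 12.58 ± 0.67 in 2-month WT, 12.35 ± 0.51 in 4-month WT, 11.37 ± 0.23 in the libraries labelled AKO, 11.91 ± 0.77 with vehicle and 11.84 ± 0.86 with tamoxifen. Nr4a2, also called Nurr1, is required for midbrain dopamine neurons and in the cortex marks claustrum and layer 6b cells besides responding to activity (gene ID 18227; chromosome 2, 57106830 to 57124003, minus strand). It was at 10.52 ± 0.37, 10.58 ± 0.49, 10.16 ± 0.27, 10.22 ± 0.50 and 10.07 ± 0.37. Nr4a3, also called Nor1 (gene ID 18124; chromosome 4, 48045153 to 48086447, plus strand), was at 10.92 ± 0.43, 10.60 ± 0.51, 9.88 ± 0.32, 10.17 ± 0.67 and 10.09 ± 0.83. The libraries labelled AKO had the lowest mean of all groups for 7 of the 9 genes, every member except Nab1 and Nr4a2, and 2-month WT had the highest mean for the same 7.

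**Figure D1:**
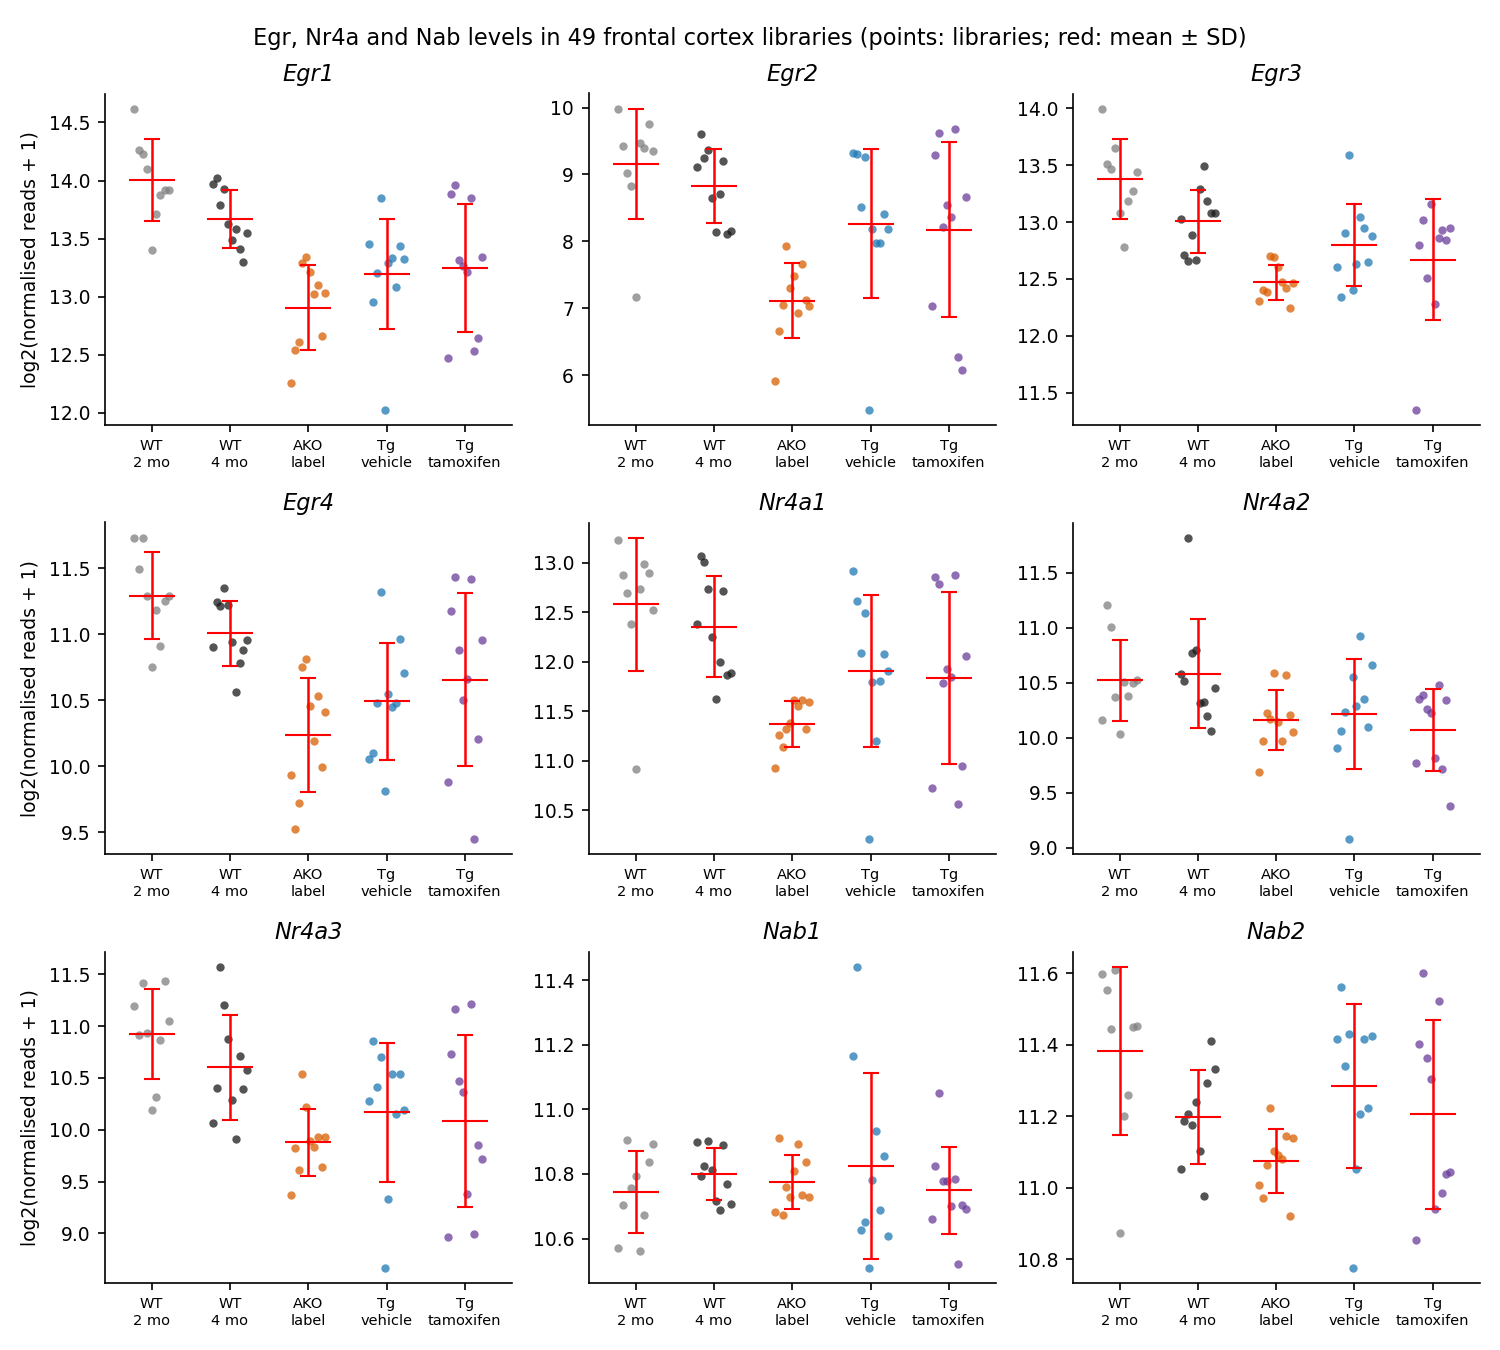
Level of each gene (vertical axis, log2(normalised reads + 1), scaled separately in each panel) in the 49 libraries by group (horizontal axis: WT on 2 and 4 months of diet, libraries labelled AKO, and transgenic mice given vehicle or tamoxifen). Points are libraries and red bars the mean ± SD. Egr2 and Nr4a1 in the libraries labelled AKO lie wholly below those of 4-month WT, while Nab1 means stay between 10.74 and 10.83.

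Per kb of merged exons, which allows genes to be compared, normalised reads in 4-month WT were highest for Egr1 (2940 ± 510, SD, n = 10), Egr3 (1900 ± 373) and Nr4a1 (1576 ± 555). Egr4 (971 ± 163), Nab2 (801 ± 72.4), Nab1 (435 ± 24.2), Nr4a2 (402 ± 180) and Nr4a3 (275 ± 107) followed. Egr2 was lowest at 142 ± 52.3 normalised reads per kb, yet it still had 45 to 1296 recovered reads in each library, so its differences do not rest on single reads.

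The first comparison, of the libraries labelled AKO with 4-month WT, asks what the labelled amylin knockout changes on the same diet. All 4 Egr genes and Nr4a1 were lower in the libraries labelled AKO, and no member was higher. Egr2 was 3.29-fold lower, Nr4a1 1.97-fold, Egr4 1.71-fold, Egr1 1.69-fold and Egr3 1.45-fold. These 5 of 9 members passed in the lower direction, where 0.504% of the 15269 genes tested did (0.282% were higher and 0.786% changed in either direction; limma-trend, Benjamini-Hochberg adjusted p 0.05). The median difference of the 9 members was -0.72, and that of all genes tested was 0.01.

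Egr2 ran from 5.91 to 7.93 (median 7.09) in the libraries labelled AKO and from 8.12 to 9.61 (median 8.91) in 4-month WT. Every library labelled AKO was below every WT library, and the difference was -1.72 (SE 0.24, 95% interval -2.21 to -1.23, adjusted p = 0.00052 by limma). Nr4a1 ran from 10.93 to 11.61 (median 11.35) against 11.62 to 13.07 (median 12.32), again without overlap although the nearest libraries almost met, with a difference of -0.98 (SE 0.17, interval -1.34 to -0.62, adjusted p = 0.0087). In this comparison 11 genes (0.072%) had every library labelled AKO below every WT library, and Egr2 and Nr4a1 were among them.

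Egr1 ran from 12.26 to 13.34 (median 13.03) in the libraries labelled AKO and from 13.30 to 14.02 (median 13.61) in 4-month WT, and 9 of 10 lay below the lowest WT library. Its difference was -0.76 (SE 0.13, adjusted p = 0.0085 by limma). Egr3 ran from 12.25 to 12.70 (median 12.44) against 12.66 to 13.49 (median 13.05), and Egr4 from 9.53 to 10.82 (median 10.30) against 10.56 to 11.35 (median 10.95). For Egr3 and for Egr4, 8 of 10 libraries labelled AKO lay below the lowest WT library, and all 10 lay below the WT median. The differences were -0.54 for Egr3 (SE 0.095, adjusted p = 0.0069) and -0.77 for Egr4 (SE 0.15, adjusted p = 0.018).

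The other 4 members did not pass. Nr4a3 ran from 9.37 to 10.54 (median 9.86) in the libraries labelled AKO and from 9.91 to 11.57 (median 10.49) in WT, a difference of -0.72 (SE 0.19, interval -1.11 to -0.34, adjusted p = 0.076 by limma). It lay nearly as far below WT as Egr1, but its libraries spread more and overlapped. Nr4a2 differed by -0.43 (SE 0.17, adjusted p = 0.27), and its highest WT library, replicate 13 at 11.82, stood above the rest. The corepressor Nab2 differed by -0.12 (SE 0.048, interval -0.22 to -0.02, adjusted p = 0.25), and Nab1 by -0.03 (SE 0.039, interval -0.11 to 0.05, adjusted p = 0.81). The whole interval of Nab1 lies nearer to 0 than the change of any member that passed.

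**Figure D2:**
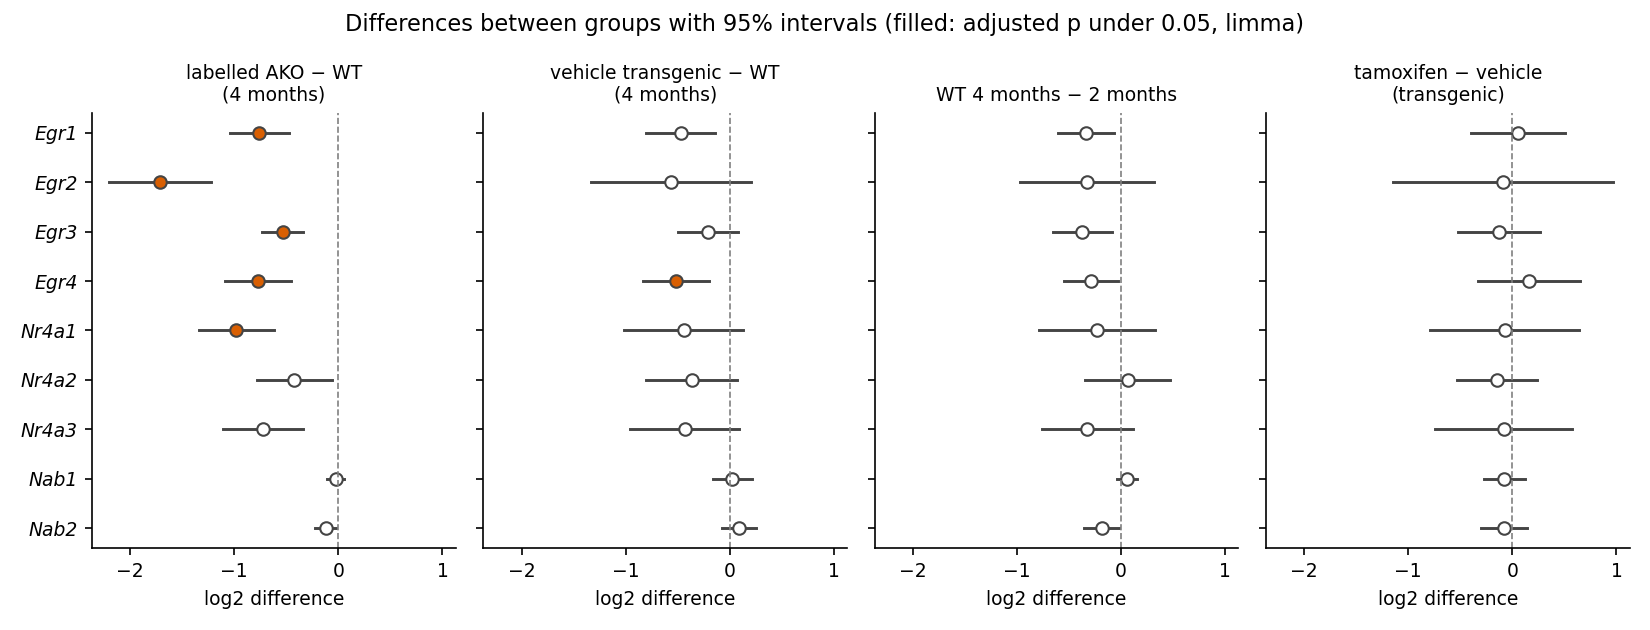
Difference between groups (horizontal axis, log2 units) for each gene (vertical axis) in 4 comparisons, with 95% intervals from limma. Filled points passed adjusted p 0.05: Egr1, Egr2, Egr3, Egr4 and Nr4a1 in the libraries labelled AKO, and Egr4 in the vehicle group. No point is filled for 4 against 2 months or for tamoxifen against vehicle.

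The Egr and Nr4a1 calls moved with the choice of libraries. No call was lost when any single library was left out. With the libraries labelled AKO numbered 6 to 8 left out, chosen after seeing the data, 2 of the 5 calls held, Egr1 (-0.57) and Egr2 (-1.47). Egr3 (-0.49), Egr4 (-0.56) and Nr4a1 (-0.87) then had adjusted p-values of 0.093, 0.081 and 0.097 by limma. In that fit 18 of 15419 genes tested were lower, against 77 of 15269 with all libraries. Against the WT libraries numbered 21 to 25 alone the 2 calls that held were Egr2 (-1.35) and Egr3 (-0.75), where 100 of 15571 genes were lower. The 3 libraries labelled AKO numbered 6 to 8 averaged 12.47 in Egr1, 6.54 in Egr2 and 9.73 in Egr4, against 13.09, 7.36 and 10.45 in the other 7. The sources used here do not say what the title numbers stand for, and their part in the result was not tested.

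Other genes that neurons induce within minutes of activity moved with the members. Of 20 rapid activity-regulated genes 14 fell in the libraries labelled AKO and 0 rose, all 20 had values below 0, and their median was -0.82 (limma-voom called 11 lower). Fosb, a subunit of the factor AP-1, fell by 1.19 (SE 0.15), Fosl2, another AP-1 subunit, by 0.93 (SE 0.13), and Gadd45b, which acts in activity-induced DNA demethylation, by 0.45 (SE 0.063). Of 17 genes that respond later, 5 fell (4 by limma-voom), with a median of -0.21, namely Bdnf, a neurotrophin gene, Pcsk1, a prohormone convertase gene, the phosphatase gene Dusp6 by 0.48 (SE 0.067), Ptgs2, which encodes cyclooxygenase 2, by 0.42 (SE 0.066), and Gadd45g by 0.39 (SE 0.069). Of the 20 upstream factors and coactivators listed (SRF, its Elk and Mkl partners, CREB, its Crtc coactivators, Mef2 factors and kinases), 0 passed by limma or limma-voom, 1 had an unadjusted p under 0.05, and the median was -0.02.

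Reported target genes of the members did not share the members' median. Of 16 reported Egr targets 2 fell, Gadd45b and Arc, which acts in synaptic plasticity and fell by 1.22 (SE 0.18), and both also are rapid activity-regulated genes. The median of the 16 was -0.02. Of 7 myelin genes known as Egr2 targets in Schwann cells 0 passed by limma or limma-voom (4 at an unadjusted p under 0.05, median -0.15). Of 10 Nr4a partners and reported targets 0 passed by either tool (0 at an unadjusted p under 0.05, median -0.11).

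Cell type markers were compared beside these changes. Of 8 oligodendrocyte markers 2 fell (1 by limma-voom), Mobp by 0.40 (SE 0.068) and Cldn11 by 0.27 (SE 0.064), all 8 were below 0, and their summed level ran from 16.99 to 17.49 in the libraries labelled AKO and from 17.32 to 17.61 in 4-month WT. The 9 striatal projection neuron markers were all above 0 (median 0.41, sum 14.92 to 16.56 against 13.97 to 16.42), and the 8 olfactory bulb markers had a median of -0.57 (sum 11.31 to 14.93 against 11.32 to 14.73). Of these 17 region markers 0 passed by limma or limma-voom (0 at an unadjusted p under 0.05). The 11 excitatory neuron markers had a median of 0.01, the 9 inhibitory neuron markers -0.01 and the 10 claustrum and layer 6b markers, which bear on Nr4a2, 0.09. The medians were -0.03 for 8 astrocyte markers, -0.04 for 6 oligodendrocyte precursor markers, 0.09 for 8 microglia markers, -0.15 for 7 endothelial markers, 0.07 for 6 pericyte and smooth muscle markers and -0.13 for 4 choroid plexus markers. Of these 9 lists 0 members passed by limma or limma-voom, and each list had 0 to 4 at an unadjusted p under 0.05. No listed marker was at 0 throughout a group, and the part of the marker differences in the members' changes was not tested.

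Tamoxifen was compared with vehicle in the transgenic mice, which addresses the induction of human amylin. The direct action of tamoxifen and the induction cannot be told apart. No difference in the Egr, Nr4a or Nab genes was detected. Of the 9 members 0 passed by limma or limma-voom, with no unadjusted p under 0.05 among them, where 0% of the 15224 genes tested passed and 502 had an unadjusted p under 0.05. Differences ran from -0.15 for Nr4a2 to 0.16 for Egr4, and each adjusted p was 0.9998 by limma.

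The spread within these 2 groups set how much could be seen. Egr2 ran from 6.08 to 9.68 (median 8.45) with tamoxifen and from 5.49 to 9.32 (median 8.30) with vehicle, and its difference was -0.09 (interval -1.15 to 0.97). Nr4a1 ran from 10.56 to 12.87 (median 11.88) against 10.21 to 12.91 (median 11.99), a difference of -0.07 (interval -0.79 to 0.64). For both genes the groups overlapped over nearly their whole range, and neither interval reached the differences seen in the libraries labelled AKO (-1.72 for Egr2 and -0.98 for Nr4a1). For Nr4a1 the interval in the libraries labelled AKO (-1.34 to -0.62) did overlap that for tamoxifen.

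Intervals were narrower for the other members: -0.40 to 0.50 for Egr1, -0.52 to 0.27 for Egr3, -0.33 to 0.65 for Egr4, -0.53 to 0.24 for Nr4a2, -0.74 to 0.57 for Nr4a3, -0.28 to 0.12 for Nab1 and -0.30 to 0.14 for Nab2. Those of Nr4a2, Nr4a3, Nab1 and Nab2 included the differences in the libraries labelled AKO (-0.43, -0.72, -0.03 and -0.12). Those of Egr1, Egr3 and Egr4 did not (-0.76, -0.54 and -0.77). For Egr3, however, the interval in the libraries labelled AKO (-0.73 to -0.34) did overlap that for tamoxifen. The effects are tested against each other below. Within the tamoxifen group, replicates 9, 33 and 44 were low in Egr2 (7.04, 6.27 and 6.08) and in Nr4a1 (10.73, 10.56 and 10.95), and replicate 28 was the highest in both. Replicate 10 of the vehicle group was the lowest of its group in 7 of the 9 genes, all but Egr3 and Nr4a2, among them Egr1 (12.03), Egr2 (5.49), Nr4a1 (10.21) and Nr4a3 (8.67). In the same comparison 0 of the 20 rapid activity-regulated genes passed by limma or limma-voom (0 at an unadjusted p under 0.05, median 0.04).

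The next comparison set 4 months of diet against 2 months in WT mice, where time on the diet and any difference in age cannot be told apart. No member passed, although 8.69% of the 15229 genes tested did (4.54% higher and 4.15% lower), and limma-voom also called 0 members. At an unadjusted p under 0.05 there were 4 members (Egr1, Egr3, Egr4 and Nab2, all with values below 0) and 4148 of the 15229 genes. The count of all genes behind the share of 8.69% was 1324. It ran from 769 to 2847 with single libraries left out, the highest without replicate 37 of the 2-month group, and was 36 with the WT libraries numbered 21 to 25 alone. Egr3 ran from 12.66 to 13.49 (median 13.05) at 4 months and from 12.78 to 13.999 (median 13.44) at 2 months, a difference of -0.37 (SE 0.14, interval -0.65 to -0.09, adjusted p = 0.089 by limma). Egr1 differed by -0.34 (SE 0.13, adjusted p = 0.11), Egr4 by -0.29 (SE 0.12, adjusted p = 0.14) and Nab2 by -0.19 (SE 0.080, adjusted p = 0.14). Egr2 (-0.33), Nr4a3 (-0.32), Nr4a1 (-0.23), Nab1 (0.06) and Nr4a2 (0.06) had unadjusted p-values over 0.05. Without replicate 36 of the 2-month group, Egr1 (-0.41, adjusted p = 0.043 by limma) and Nab2 (-0.25, adjusted p = 0.024) passed, where 464 of 15291 genes tested were lower. That library was the lowest of its group in Egr1, Egr2, Egr4, Nab2, Nr4a1, Nr4a2 and Nr4a3.

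Among other genes of the pathway few passed between these WT groups, and their shares are to be read against the 4.15% of all genes that were lower and the 4.54% that were higher. Of the 20 rapid activity-regulated genes 1 fell, a share near that of all genes: Gadd45b, by 0.25 (SE 0.069), and of the 17 later ones 2 fell, the neuropeptide precursor gene Vgf by 0.52 (SE 0.091) and Bdnf by 0.36 (SE 0.096). Of the 20 upstream factors 3 rose, Mapk3, which encodes the kinase ERK1, by 0.28 (SE 0.044), Rps6ka5, the kinase MSK1, by 0.37 (SE 0.072), and Elk1, an SRF partner, by 0.11 (SE 0.029), and 1 fell, Mef2d. Of 16 reported Egr targets 3 fell: Gadd45b again, Cdk5r1, the p35 activator of the kinase Cdk5, by 0.19 (SE 0.037), and Syn1, a synaptic vesicle protein, by 0.23 (SE 0.070). Marker lists also moved. Of 8 astrocyte markers 5 rose (Aqp4, Gja1, Slc1a3, Aldh1l1 and S100b) and of 7 endothelial markers 3 (Pecam1, Cdh5 and Tek), and of 11 excitatory neuron markers 2 fell (Slc17a7 and Neurod2). The microglia markers Itgam, P2ry12 and Cx3cr1 rose by 0.26, 0.26 and 0.21 (SE 0.042, 0.052 and 0.045), the pericyte marker Rgs5 rose by 0.28 (SE 0.073), and the inhibitory neuron marker Npy fell by 0.15 (SE 0.047), though not by limma-voom. Their part in the members' values was not tested.

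The vehicle-treated transgenic mice were compared with 4-month WT, where the transgenic line, its background and the injection cannot be told apart. Egr4 was 1.43-fold lower in the vehicle group, the single member that passed, where 3.59% of the 15207 genes tested passed in the lower direction (6.17% in either). Egr4 ran from 9.81 to 11.33 (median 10.48) with vehicle and from 10.56 to 11.35 (median 10.95) in WT, and 7 of 10 vehicle libraries lay below the lowest WT library. The difference was -0.51 (SE 0.15, adjusted p = 0.047 by limma). This call was lost in 17 of the 20 fits that left out a single library and with limma-voom (-0.49, adjusted p = 0.051), so it rests on the margin of the threshold.

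Egr1 ran from 12.03 to 13.85 (median 13.31) with vehicle and from 13.30 to 14.02 in WT, and its difference of -0.47 (SE 0.16, interval -0.80 to -0.14) had an adjusted p of 0.087 by limma. Egr2 differed by -0.57 (interval -1.34 to 0.20), Nr4a1 by -0.44 (-1.01 to 0.13), Nr4a3 by -0.43 (-0.95 to 0.09), Nr4a2 by -0.37 (-0.80 to 0.07) and Egr3 by -0.21 (-0.49 to 0.08). With single libraries left out, Egr2 ran from -0.68 to -0.26, Nr4a1 from -0.55 to -0.25 and Nr4a3 from -0.51 to -0.27, each nearest to 0 without replicate 10 of the vehicle group. Nr4a2 ran from -0.45 to -0.23, nearest to 0 without replicate 13 of 4-month WT. The Nab genes lay near 0, at 0.03 (Nab1) and 0.09 (Nab2). Of the 20 rapid activity-regulated genes 0 passed by limma or limma-voom (7 at an unadjusted p under 0.05, median -0.38), and 2 upstream factors rose, Mkl1 by 0.21 (SE 0.047) and Mef2d by 0.15 (SE 0.046). All 8 oligodendrocyte markers fell in this comparison (median -0.62, sum 16.36 to 17.52 with vehicle), as did 4 of 6 Egr2 myelin targets tested: Mbp, Gjb1 by 0.77 (SE 0.15), Cnp by 0.53 (SE 0.10) and Mag by 0.63 (SE 0.13). Mbp, Cnp and Mag are in both lists. The precursor markers Olig1 and Olig2 fell by 0.36 (SE 0.058) and 0.31 (SE 0.066), the endothelial markers Tek and Pecam1 by 0.35 (SE 0.094) and 0.25 (SE 0.068), and Cux2 rose by 0.39 (SE 0.073). All 9 striatal markers had values below 0 (median -0.79, sum 14.09 to 16.16 with vehicle and 13.97 to 16.42 in WT), with 0 called by limma or limma-voom and 2 at an unadjusted p under 0.05, and the part of all these differences in the Egr4 result was not tested.

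The 3 comparisons with 4-month WT share those 10 WT libraries, so their results are not independent. For Egr1 they gave -0.76 for the libraries labelled AKO, -0.47 for the vehicle group and -0.34 for 4 against 2 months. For Egr2 they gave -1.72, -0.57 and -0.33, and for Nr4a1 -0.98, -0.44 and -0.23. The effect of the AKO label and the effect of tamoxifen, which share no libraries, were tested against each other in 1 model. Of the 9 members 0 differed by limma or limma-voom, where 0.0382% of the 15691 genes tested (6 genes) differed by limma. At an unadjusted p under 0.05 there were 4 members and 886 of the 15691 genes. The difference between the effects was -0.81 for Egr1 (SE 0.26, adjusted p = 0.66) and -1.63 for Egr2 (SE 0.58, adjusted p = 0.73).

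In 1 model of all 49 libraries, neighbours in the order of group means did not differ for any gene. Of 36 such neighbouring pairs (4 for each of the 9 genes) 0 passed by limma or by limma-voom, and in 35 the gap was smaller than the larger of the 2 SDs. The widest step was in Egr2, between the libraries labelled AKO and the tamoxifen group (1.06, SE 0.40, adjusted p = 0.085). Groups further apart did differ. In the comparisons with 2-month WT that follow, the other group had 4 months of diet. There the label, or the transgenic line and injection, cannot be told apart from time on the diet and any difference in age. The libraries labelled AKO were lower than 2-month WT for 7 members, all but Nab1 and Nr4a2, where 5.31% of 15852 genes were lower. Egr2 differed by -2.04 (SE 0.41), Nr4a1 by -1.21 (SE 0.29), Egr1 by -1.10 (SE 0.19), Egr4 by -1.06 (SE 0.20), Nr4a3 by -1.05 (SE 0.26), Egr3 by -0.91 (SE 0.16) and Nab2 by -0.31 (SE 0.090). The tamoxifen group was lower than 2-month WT for Egr1, Egr3, Egr4 and Nr4a3 (-0.64 to -0.84; 5.31% of genes lower), and the vehicle group for Egr1, Egr3 and Egr4 (-0.58 to -0.81; 2.87%). Against 4-month WT this model called 2 members lower in the libraries labelled AKO, Egr1 and Egr2 (adjusted p = 0.044 each; 0.202% of genes lower). Both of these calls were lost without the filter on low reads (adjusted p = 0.055 for Egr1 and 0.052 for Egr2 by limma) and with limma-voom (0.054 and 0.22), while the calls against 2-month WT held under both.

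The members varied widely between libraries of the same group. The pooled SD within groups was 0.92 for Egr2, larger than that of 95.4% of the 15852 genes tested, 0.65 for Nr4a1 (88.9%), 0.58 for Nr4a3 (86.9%) and 0.45 for Egr4 (81.5%). Egr1 (0.41, 79.6%), Nr4a2 (0.41, 79.5%) and Egr3 (0.36, 75.6%) followed, while Nab2 (0.20, 55.9%) and Nab1 (0.16, 45.9%) lay near the median gene at 0.18. Among the 7445 genes with a mean of at least 1000 normalised reads, Nr4a1 ranked number 33 from the top and Nr4a3 number 46. The within-group spread of Egr3 was not even across groups: its SD was 0.15 in the libraries labelled AKO and 0.53 with tamoxifen.

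**Figure D3:**
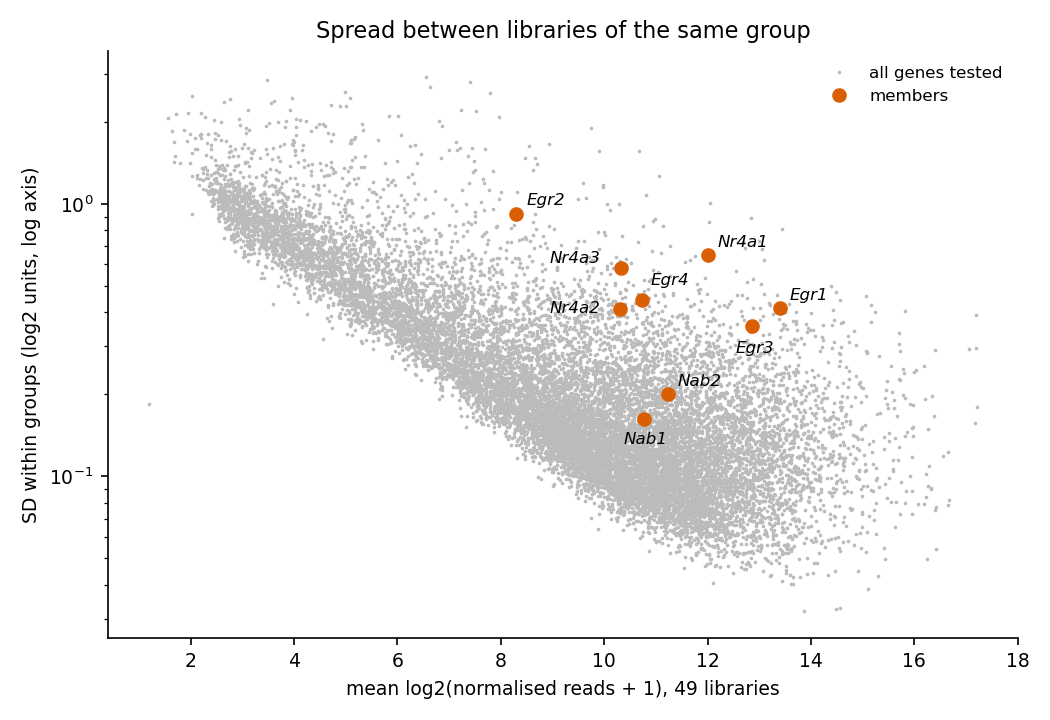
SD between libraries of the same group (vertical axis, log2 units, log axis) against mean level over 49 libraries (horizontal axis, log2(normalised reads + 1)) for all 15852 genes tested (grey) and the 9 genes described (orange). The 7 Egr and Nr4a genes lie above most genes of like mean level, and Nab1 and Nab2 lie within the main cloud.

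After subtraction of each group's mean, levels of most members varied together over the 49 libraries, and in these pooled values Egr3, Nr4a2 and Nab1 stood apart. Nab1 ran from r = -0.115 with Egr3 to 0.496 with Nr4a3. These correlations are descriptions, because libraries share depth, dissection and other sources of variation. Egr2 and Nr4a1 had Pearson's r = 0.935, the highest of the 21 pairs among the 7 Egr and Nr4a genes (median 0.491), although they belong to different families. Egr1 and Egr4 had r = 0.86, and Egr1 and Egr2 r = 0.841. Within the Egr family the 6 pairs ran from 0.244 (Egr2 with Egr3) to 0.86, within the Nr4a family the 3 pairs from 0.131 to 0.726, and across families the 12 pairs from -0.118 (Egr3 with Nr4a2) to 0.935. Nab2 followed Nr4a3 most closely of the members, at r = 0.807. Group by group, Egr3 with Egr1 had r = 0.859 in 2-month WT, 0.851 in the libraries labelled AKO, 0.658 with vehicle and 0.463 with tamoxifen. In 4-month WT alone it was negative, at -0.525. Egr3 with Egr4 had 0.689, 0.761, 0.772 and 0.348 in the same order, and -0.886 in 4-month WT. Egr3 with Egr2 had 0.333, 0.624, 0.308 and 0.294, and -0.474 in 4-month WT.

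**Figure D4:**
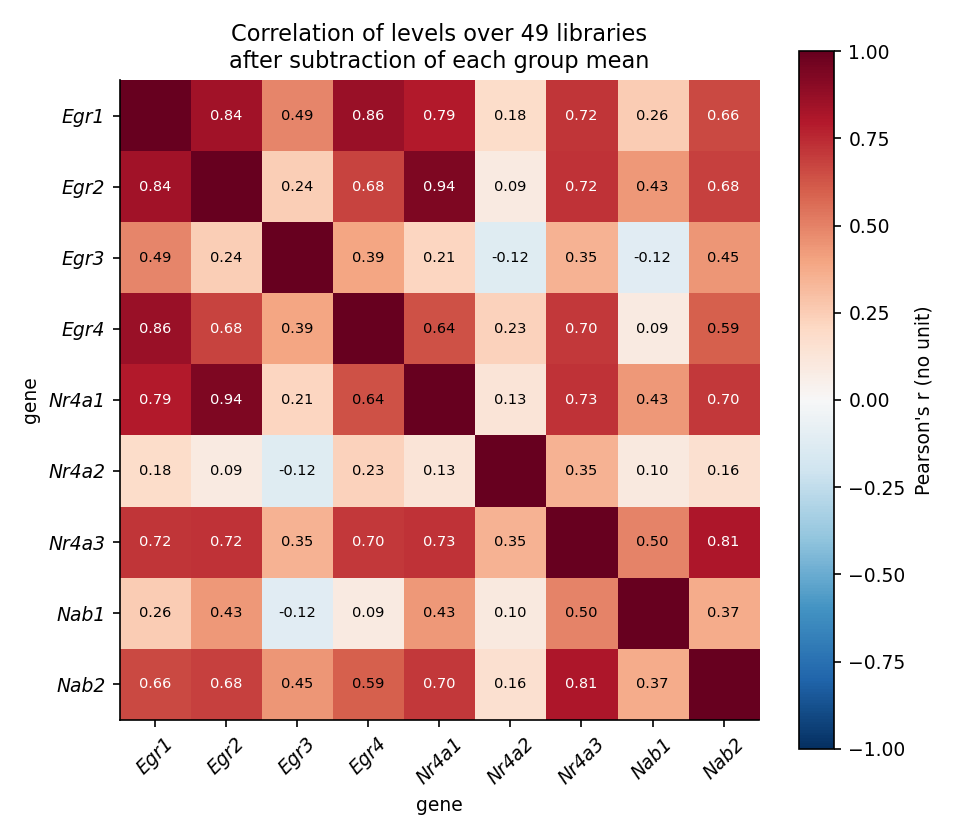
Pearson's r (colour scale, no unit, and the number in each cell) between the levels of each pair of genes (both axes) over 49 libraries after subtraction of group means. The cells of Egr1, Egr2, Egr4, Nr4a1 and Nr4a3 with one another are dark red, and the rows of Egr3, Nr4a2 and Nab1 are paler, down to -0.118.

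Egr3 was low in some of the libraries with low Egr2 and Nr4a1 and not in others. In the library with the lowest Egr2 of all, replicate 10 of the vehicle group (5.49), Egr3 was 12.40, below the group mean of 12.80, and in the next, replicate 6 of those labelled AKO (5.91), it was 12.31, below the group mean of 12.47. Replicate 9 of the tamoxifen group was low in Egr2 (7.04), Nr4a1 (10.73) and Egr3 (11.35). Replicates 33 and 44 of that group were lower still in Egr2 (6.27 and 6.08) and low in Nr4a1. Their Egr3 was 12.93 and 12.84, near the group median of 12.85 and above the group mean of 12.67, which includes replicate 9. Replicate 36 of 2-month WT had Egr2 at 7.16 and Nr4a1 at 10.92, both lowest in its group, and its Egr3 at 13.08 was below the group mean of 13.38 and second lowest after replicate 37 at 12.78. Nr4a2 in 4-month WT was highest in replicate 13 (11.82), where Nr4a3 was highest too (11.57) and Egr3 lowest (12.66).

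**Figure D5:**
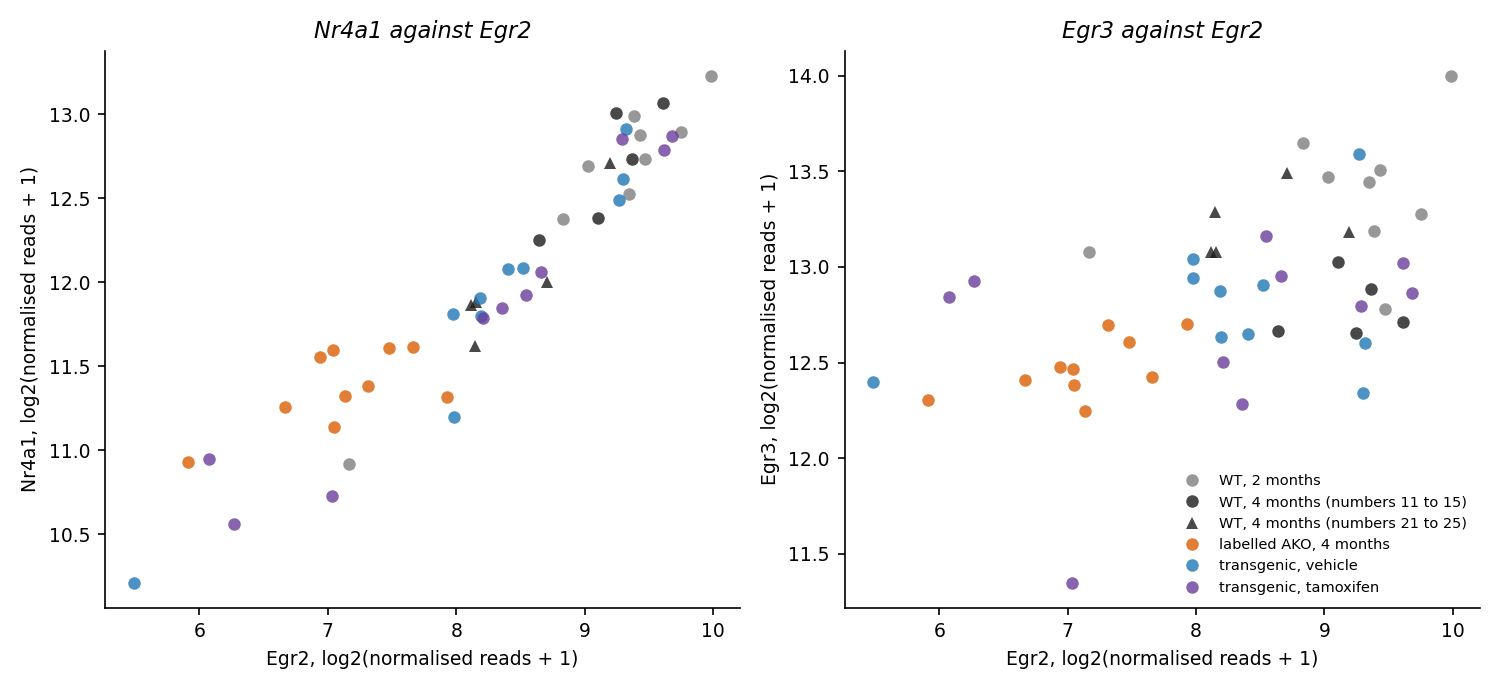
Nr4a1 (left, vertical axis) and Egr3 (right, vertical axis) against Egr2 (horizontal axes), all in log2(normalised reads + 1), with 1 point for each of 49 libraries coloured by group and 4-month WT split by title number. Nr4a1 follows Egr2 along a narrow band, while Egr3 does not, and WT libraries numbered 21 to 25 sit above those numbered 11 to 15 in Egr3.

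The WT libraries at 4 months fall into title numbers 11 to 15 and 21 to 25, a split known from earlier results of these data and given without a test. Egr2 averaged 9.20 ± 0.36 (SD, n = 5) in the first run and 8.46 ± 0.48 in the second, Nr4a1 12.69 ± 0.36 and 12.02 ± 0.41, and Egr1 13.87 ± 0.16 and 13.47 ± 0.12. Nr4a2, Nr4a3 and Egr4 were also higher in the first run, by 0.62, 0.45 and 0.36. Egr3 went the other way, at 12.79 ± 0.16 and 13.23 ± 0.17, and its 2 ranges did not overlap (12.66 to 13.03 and 13.08 to 13.49). The change of each gene in the libraries labelled AKO therefore depends on the run it is measured against. Against numbers 11 to 15 alone it was -2.08 for Egr2, -1.32 for Nr4a1, -0.96 for Egr1 and -0.32 for Egr3 (adjusted p = 0.061 by limma), and against numbers 21 to 25 alone -1.35, -0.64, -0.56 and -0.75.

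The genes whose group-centred level was most like the mean z-score of the 7 Egr and Nr4a genes over 49 libraries were sought among 12968 genes with a mean of at least 50 normalised reads. These were Midn (r = 0.869), Fosb (0.817), Arc (0.809), Dusp6 (0.801), Gadd45b (0.792), Nab2 (0.774), Junb (0.77) and Per1 (0.752). For single members the closest gene outside the 9 was Midn for Egr1 (0.804) and Nr4a3 (0.849), Fos for Egr2 (0.922), Dusp1 for Nr4a1 (0.888) and Dusp6 for Egr4 (0.754). Egr3 was closest to Etv5, an Ets factor (0.896), Nab1 to Usp46 (0.80) and Nab2 to Stk40 (0.848). Nr4a2 had no close partner. Its highest value was 0.572, with Scnn1a, a sodium channel gene.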

How the data were processed

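Frontal cortex RNA was sequenced in 49 libraries of 5 groups with a stranded mRNA kit, per the labels' protocols. The authors deposited 1 table of log2 values (24495 rows, 50 value columns), log2 of normalised reads plus 1 from the values themselves. The sources used here name no aligner, genome build or counting tool. Of these, 1 column matched no sample and was not used.

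Low values fell on whole multiples of 1 step per library, so reads were recovered (99.92% to 100.0% of values up to 200 reads within 0.1 of a whole number). Left out were 7 rows that were not whole reads, and 27 symbols stood as dates. Libraries held 29.17 to 75.65 M reads. The closest replicates differed by a chi-square of 6.64 per gene, so none was a copy. Genes were tested if they reached 10 read-equivalents in a number of libraries equal to the smaller group's size and totalled 15 reads, with limma-trend (limma 3.58.1, R 4.3.3, robust, two-sided, without a replicate block), with Benjamini-Hochberg adjustment over all genes tested and a threshold of 0.05. The script was tested on simulated data. Alternatives were other filters, pseudocounts and scalings, limma-voom on recovered reads, 1 model of all libraries, a replicate block and libraries left out. Descriptions used Python 3.11.15 with pandas 2.3.3 and numpy 2.4.6, and plots matplotlib 3.10.9. Gene positions are GRCm38.

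All 9 members were named. Of each gene list, up to 3 genes past the threshold with the smallest p were named per comparison; other genes of small counts (Pcsk1, Bdnf in the libraries labelled AKO, Mef2d in WT, Mbp, Slc1a3, Aldh1l1) were named after their values were seen. Like genes were the 8 with the highest r among genes of at least 50 mean normalised reads, predicted models left out. The members and lists were chosen with earlier results of these data known. Part of the microglia marker results is not reported here.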

Additional observations from a re-analysis of the deposited data

Results flagged for a closer look

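Among 45 sets of libraries (9 genes in each of 5 groups), 6 held a library far from the others of its group by Dixon's test, and chance alone marks about 5% of such sets. Replicate 10 of the vehicle group was lowest in Egr1 at 12.03, where the other 9 ran from 12.95 to 13.85, and in Egr2 at 5.49, where they ran from 7.98 to 9.32. Replicate 36 of 2-month WT was lowest in Egr2 at 7.16 and in Nr4a1 at 10.92, where the lowest of the others were 8.83 and 12.38. Replicate 9 of the tamoxifen group was lowest in Egr3 at 11.35, with the others between 12.28 and 13.16. Replicate 13 of 4-month WT was highest in Nr4a2 at 11.82, with the others between 10.06 and 10.80.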

How the results depend on the processing

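Of the 5 members lower in the libraries labelled AKO, 2 were called in 1 model of all 49 libraries (Egr1 and Egr2; the changes were the same and the SEs larger, 0.28 in place of 0.17 for Nr4a1), 2 against the WT libraries numbered 21 to 25 alone (Egr2 and Egr3) and 2 without the libraries labelled AKO numbered 6 to 8, an alternative chosen after seeing the data (Egr1 and Egr2). Against WT numbered 11 to 15 alone Egr3 was lost (adjusted p = 0.061), and without the libraries labelled AKO numbered 14 and 19 Egr4 was lost (-0.77, adjusted p = 0.051), each leaving 4. Leaving out any single library kept all 5, and Egr2 then ran from -1.81 to -1.58 and Nr4a1 from -1.06 to -0.90. The count of all genes called was 120, and 62 to 206 with single libraries left out. It was 50 in 1 model of all libraries and 29 without the libraries labelled AKO numbered 6 to 8. Against WT numbered 21 to 25 alone it rose to 156, and against 11 to 15 alone to 137. Without the libraries labelled AKO numbered 14 and 19 it was 62. With libraries scaled to their totals, 51 genes were higher and 50 lower in place of 43 and 77, and for 4 against 2 months 806 were higher and 496 lower in place of 692 and 632. The count of all genes in the vehicle comparison, 939, ran from 651 to 1493 with single libraries left out.

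Title numbers 12, 13, 14, 15 and 21 occur in both 4-month WT and the libraries labelled AKO. After subtraction of group means, same-numbered libraries correlated at -0.28 to 0.13 over genes. So few values cannot show whether these libraries share more than a number, and the sources used here do not say what the numbers stand for. With the replicate block 2 members were called lower (Egr1 -0.59 and Egr2 -1.66) and 12 genes in all. No paired analysis was possible for the other comparisons because their groups share fewer than 2 numbers.

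For 4 against 2 months, 0 to 2 members were called lower with single libraries left out (2 without replicate 36 of the 2-month group, 1 without replicate 37, Egr3, or without replicate 22 of 4-month WT, Egr3), and 1 with WT numbered 11 to 15 alone (Egr3). In these fits, in the same order, 464 of 15291, 1533 of 15270, 806 of 15196 and 579 of 15409 genes tested were lower. For vehicle against 4-month WT the count was 0 without the filter, without trend or robust shrinkage, with limma-voom, in 1 model of all libraries and with either run of WT numbers alone, and 0 to 2 with single libraries left out (2 without replicate 5 of the vehicle group, Egr1 and Egr4). Without that replicate 5, 419 of 15262 genes tested were lower.

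Changes of sign occurred in members that had not passed. With WT numbered 21 to 25 alone, Nab1 was 0.021 in the libraries labelled AKO and Nr4a2 was -0.25 at 4 against 2 months. With WT numbered 11 to 15 alone, Egr2 was 0.039 and Nr4a1 0.11 at 4 against 2 months, and Egr3 was 0.0092 and Nab1 -0.021 in the vehicle group. With single libraries left out, tamoxifen against vehicle ran from -0.077 to 0.14 for Egr1, -0.40 to 0.14 for Egr2, -0.18 to 0.019 for Egr3, -0.26 to 0.067 for Nr4a1 and -0.25 to 0.041 for Nr4a3. Nr4a2 at 4 against 2 months ran from -0.075 to 0.15, and Nab1 in the vehicle group from -0.043 to 0.060. The cause was not tested.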
